A study of Mus musculus with 2 samples.

Results

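The miR-466, miR-467, miR-669 and miR-297 families are microRNA (miRNA) genes of the mouse and rat, most of them packed into an intron of the imprinted gene Sfmbt2. Their members in these data were chosen by symbol alone: every gene in the files named Mir466, Mir467, Mir669 or Mir297, with or without a suffix, in the GENCODE M21 annotation. The rule found 69 of the 1973 miRNA genes, of which 25 belong to Mir466, 17 to Mir467, 21 to Mir669 and 6 to Mir297. The annotation lists 81 such genes, and the other 12, among them 9 copies of Mir669a, were not analysed here.

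The study sequenced small RNA of under 30 nt from kidneys of B6NCrl mouse embryos at 15.5 days of development. The kidneys came from healthy embryos of both sexes. There is 1 group with 2 biological replicates, and each library was made from a pool, of 78 embryos for replicate 1 and 62 for replicate 2. The files hold 7434182 and 5863293 reads on the own strand of a miRNA gene, and every level below is given as CPM, reads scaled to a total of 1000000 such reads. There is no other tissue, age or treatment. The values therefore answer what share of the counted reads fell in these families, which members held those reads, and how closely the pools matched. Reads that match several places are not among the counted reads, so the full amount of these miRNAs in the embryonic kidney is not measured.

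A miRNA is cut from a hairpin transcript first by Drosha in the nucleus and then by Dicer, and the mature strand guides Argonaute to messenger RNAs that pair with its seed, bases 2 to 8. Sfmbt2 encodes a Polycomb group protein and is transcribed from the paternal allele in the early embryo and placenta. Its miRNA cluster grew by repeated duplication in rodents and is known for its role in placental growth. Many of its hairpins are rich in alternating U and G, or A and C. A read that matches several places cannot be given to 1 copy, and the files set such reads apart. Such reads were 27.1% of all reads for replicate 1 and 26.6% for replicate 2, with no gene recorded for them.

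The mature sequences in RefSeq (GRCm38.p6) matched 8 of the 69 members, all of them outside Sfmbt2. They are shown because they display the alternating bases found in many hairpins of the families and because none of these 8 genes had a read. They were chosen with that known. Each is written 5′ to 3′ with the seed in capitals.

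miR-466q: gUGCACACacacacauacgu

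miR-466k: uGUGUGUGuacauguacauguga

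miR-466j: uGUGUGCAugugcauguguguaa

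miR-466i-3p: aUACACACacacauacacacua

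miR-467f: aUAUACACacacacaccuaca

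miR-467g: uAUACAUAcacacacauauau

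miR-467h: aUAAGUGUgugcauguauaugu

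miR-669n: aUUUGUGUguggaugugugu

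The 8 mature sequences had 8 distinct seeds, so none of these 8 shared a seed with another of them. Of the 1738 mature sequences in the RefSeq table, 1 other (miR-668-5p) had the seed of miR-467h, and no other in that table had any of the remaining 7 seeds. The comparison leaves out the 61 members without an entry, so it does not show that these seeds are unique within the families. Strict alternation of U and G or of A and C ran for 12 bases in miR-466q and in miR-467f, for 11 in miR-466i-3p and for 7 in miR-466j and miR-467h. The whole mature sequence occurred in 3 GENCODE hairpins for miR-467h (its own, Gm25510 and Gm26303) and in its own hairpin alone for the other 7. These mature sequences lie at chr3:28419988-28420007 (miR-466q), chr3:85467396-85467418 (miR-466k), chr10:60960802-60960824 (miR-466j), chr13:17747552-17747573 (miR-466i-3p), chr9:115381898-115381919 (miR-467h) and chr3:115979905-115979924 (miR-669n) on the plus strand. Those of miR-467f at chr11:69635419-69635439 and miR-467g at chr5:34732872-34732892 are on the minus strand. Mir466q is in an intron of Tnik, and the other 7 genes lie outside any other gene annotated on their strand.

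The label names Sfmbt2, and most members lie in it. Within Sfmbt2 (chromosome 2, 10370510 to 10595253, plus strand) lay 59 members, all on its strand and all in 1 intron, number 11 of the annotated transcript with the most exons. They span 51.6 kb, from 10466663 to 10518279, and begin 96.2 kb after the start of the gene. The other 10 members are spread over 7 chromosomes, and the label does not describe them.

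All counted reads of the families came from the Sfmbt2 intron. The 59 members there had 38171 reads in replicate 1 and 31648 in replicate 2. The 10 members elsewhere had 0 reads in both. For a single gene at 0 reads the detection floor was set at 3 counts, which is 0.404 CPM at the depth of replicate 1 and 0.512 CPM at that of replicate 2. The two-sided 95% exact interval used for the other values would end higher, at 0.496 and 0.629 CPM. The intervals and these limits cover counting error only, and apply to reads that match 1 place. The mature sequence of miR-467h occurs in 3 GENCODE hairpins, so a count of 0 does not bound its level. The families thus made up 0.513% of own-strand reads in replicate 1 (95% exact binomial interval 0.508 to 0.519) and 0.540% in replicate 2 (0.534 to 0.546), a mean of 0.527% ± 0.0186 (SD, n = 2). By CPM replicate 2 was higher by 0.072 on the log2 scale (0.051 to 0.094, counting error). This direction rests on the scaling: the log2 ratio of the sums was -0.056 with TMM, -0.088 with DESeq2 size factors and -0.076 relative to the median ratio of all genes.

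A small number of members carried nearly all of these reads. Of the 69 members, 11 reached 1 CPM in both libraries, a share of 15.9%, and 20% of all miRNA genes did so (394 of 1973). No read fell in 46 members in either library, beside 63.1% of all miRNA genes with none. The 6 highest members, Mir467d, Mir467e, Mir467c, Mir669o, Mir669l and Mir669c, held 99.1% ± 0.121 of the families' reads, and the 3 Mir467 genes among them held 82.2% ± 1.76. The same 6 members led in either library, and only they reached 100 CPM in both.

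The Mir467 family led, with 82.3% ± 1.76 of the families' reads (SD, n = 2), although 12 of its 17 members had no read. Mir467d (ENSMUSG00000077021.2, chromosome 2 from 10507630 to 10507714) stood at 1477 CPM in replicate 1 and 1665 CPM in replicate 2, the highest member in both pools and rank 70 of 1973 genes by mean. Mir467e (ENSMUSG00000076948.2, 10505721 to 10505807) had 1374 and 1484 CPM, rank 73. Mir467c (ENSMUSG00000077049.2, 10473931 to 10474027) had 1436 and 1223 CPM, rank 78. Their means were 1571 ± 133, 1429 ± 77.8 and 1329 ± 150.5 CPM. Within each library Mir467d was above Mir467e, and their counting intervals did not overlap (1450 to 1505 against 1347 to 1401 CPM in replicate 1, and 1633 to 1699 against 1453 to 1515 CPM in replicate 2). The order of Mir467c and Mir467e changed between the libraries. Mir467d and Mir467e are near neighbours toward the far end of the cluster, while Mir467c lies more than 31 kb before them. The next member of the family, Mir467b, stood at 2.29 and 2.22 CPM, from 17 and 13 reads. Mir467a-1 had 1 and 2 reads, and the other 9 measured Mir467a copies had none.

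The Mir669 family held 17.2% ± 1.85 of the families' reads. Mir669o (ENSMUSG00000077086.1, chromosome 2 from 10514300 to 10514395) had 385 CPM in replicate 1 and 454 CPM in replicate 2. Mir669l (ENSMUSG00000076959.1, 10468971 to 10469068) had 311 and 352 CPM. Mir669c (ENSMUSG00000076118.1, 10509296 to 10509404) had 100.2 and 176 CPM. These 3 levels kept their order in both pools without overlap, and all lay below the lowest value of the 3 leading Mir467 genes. Mir669e followed at 16.1 and 14.7 CPM and Mir669h, the last member at the far end of the intron, at 3.50 and 4.78 CPM. Of the 21 Mir669 genes measured 14 had no read, and the family had 5 members at 1 CPM or more in both libraries.

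Mir466, the family with the most members, came after both by reads, with 0.406% ± 0.0598 of the families' reads. Of its 25 members 1 reached 1 CPM in both libraries. This was Mir466n (ENSMUSG00000077991.1, chromosome 2 from 10513741 to 10513834), at 19.6 and 16.7 CPM from 146 and 98 reads. Mir466h had 5 and 8 reads, Mir466o had 7 and 4, and Mir466b-3 had 6 and 2. These 3 genes were near the limit of detection at this depth, and their intervals overlapped. The Mir297 family held 0.0667% ± 0.0317. Mir297a-2 stood at 4.30 and 2.05 CPM, from 32 and 12 reads, Mir297b had 1 and 2 reads, and Mir297c had 1 and 0. No read was found on the opposite strand of any of the 69 members, for which the floor of 3 counts is 0.00786% of the families' reads in replicate 1 and 0.00948% in replicate 2.

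**Figure D1:**
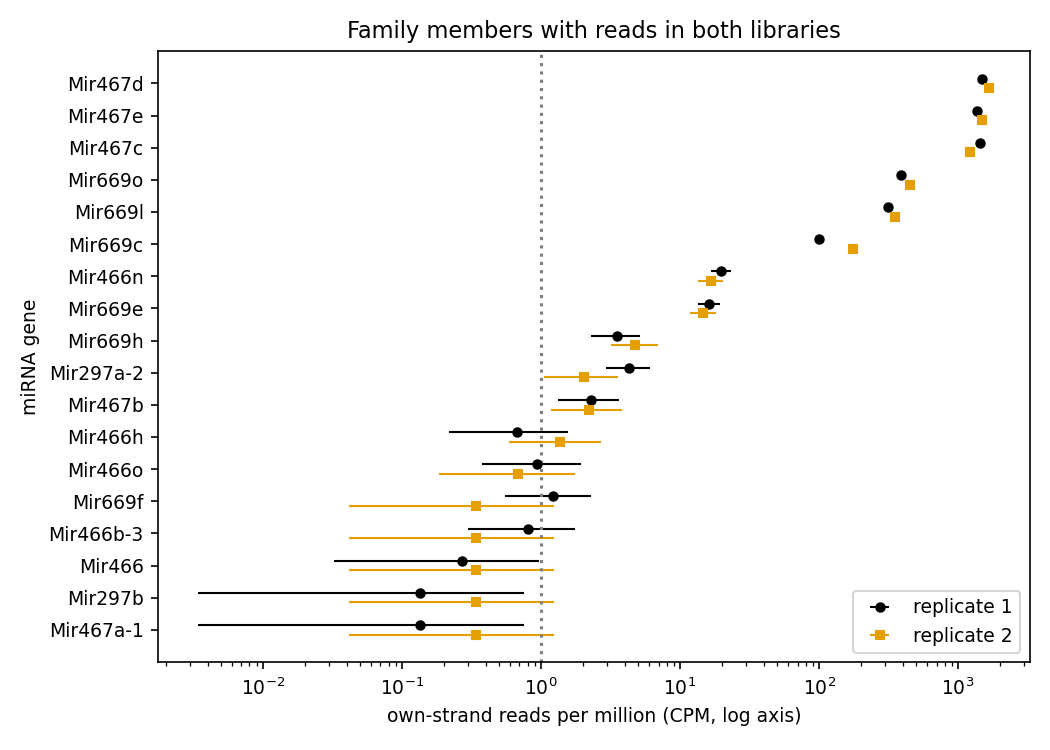
Own-strand CPM (log axis) for the 18 members with a read in both libraries; circles are replicate 1, squares replicate 2, bars are 95% exact binomial intervals for counting error, and the dotted line is 1 CPM. The 3 leading Mir467 genes sit between 1223 and 1665 CPM, Mir669o, Mir669l and Mir669c between 100.2 and 454 CPM, and the bars of members near the dotted line overlap.

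These levels are for whole hairpin genes. A small RNA read covers a mature strand of about the same length whatever the hairpin, so CPM was not divided by length, and the order of the 6 highest members was the same per nucleotide of hairpin. In the ranking of all 1973 genes by mean CPM, Mir669o stood at 113, Mir669l at 125, Mir669c at 162, Mir466n at 250 and Mir669e at 262.

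Reads were unevenly placed along the intron. The 15 members before Mir467a-1 held 32.0% ± 3.52 of the families' reads, mostly Mir467c and Mir669l. The 21 members after Mir467a-10 held 68.0% ± 3.52, mostly Mir467d, Mir467e, Mir669o and Mir669c. Between these lies a stretch of 27.0 kb, from 10476346 to 10503355, with 23 members and 0.0473% ± 0.000170 of the reads. This stretch was picked after the values were seen. It had 18 reads in replicate 1 and 15 in replicate 2, which came from Mir467a-1 and Mir467b alone within it.

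The members of that stretch are also those with the least sequence of their own. Each hairpin was read in windows of 20 nt, and a window counted as its own if it occurred in no other miRNA gene of GENCODE M21 on either strand. The rest of the genome was not searched. In the middle stretch 19 of 23 members had no window of their own, while of the 15 members before it none and of the 21 after it 1 (Mir669a-2) had none. Over all members it was 20 of 69 (29.0%), and 13.6% over all miRNA genes. These 20 members had 1 read in replicate 1 and 2 reads in replicate 2 in all, each of them in Mir467a-1. In all of these but Mir466b-8 and Mir669a-2, the longest stretch shared with 1 other gene was the whole hairpin. A read of any length within it thus matches more than 1 gene. The shared stretch was 84 of 86 nt in Mir466b-8 and 93 of 97 nt in Mir669a-2. Low counts here therefore leave the true level of these miRNAs unmeasured, and the reads counted in Mir467a-1 were not examined further.

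**Figure D2:**
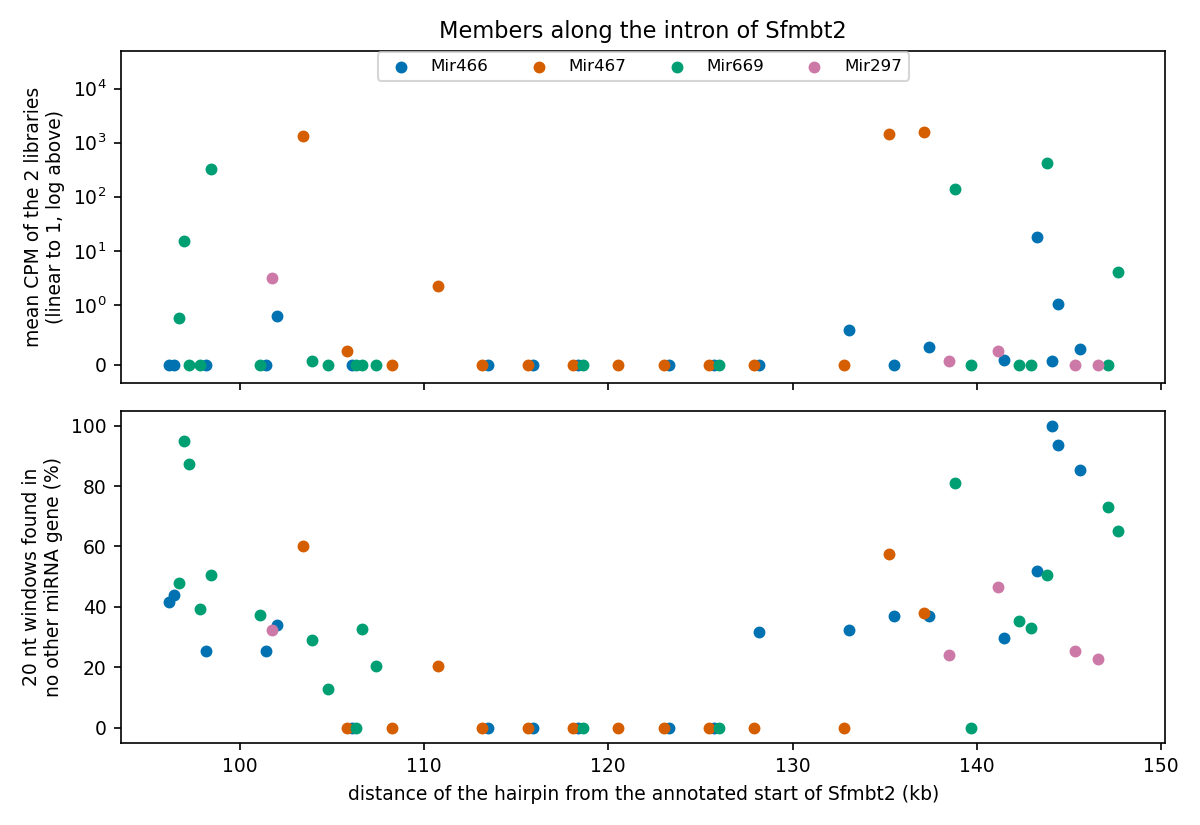
The 59 members within Sfmbt2, by distance in kb of the hairpin from the annotated start of the gene; the upper panel gives mean CPM of the 2 libraries (linear up to 1, log above), the lower panel the percent of 20 nt windows found in no other miRNA gene, and colours mark the families. The middle 27.0 kb, where 19 of 23 members have no window of their own, holds no member above 0.238 CPM other than Mir467b, and the 6 highest members lie on either side of it.

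Sharing of sequence was the rule in these families. A stretch of 20 nt shared with another miRNA gene was found in 67 of 69 members, and in 49.0% of all miRNA genes with a hairpin sequence. Of the members 17 had a hairpin identical to that of another gene, and these 17 had no read in either library. A read within an identical hairpin matches more than 1 gene and is not counted, so these counts of 0 do not measure level. Among all miRNA genes, 253 of the 258 with no window of their own had no read. Aligned end to end with the most similar gene of the cluster or families, members within Sfmbt2 had a median identity of 94.1%, and those elsewhere 71.7%, from 60.3% to 75.4%. An 8-base repeat, UGUGUGUG or CACACACA (the pair covers either strand, with the same repeat counted once), occurred in the hairpins of 54 of 69 members and in 11.6% of all miRNA genes. It was present in 24 of 25 Mir466 hairpins, 15 of 17 Mir467, 15 of 21 Mir669 and 0 of 6 Mir297. The match is a description of the letters only.

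All but 1 of the 23 members with a read had windows of their own, the exception being Mir467a-1. Among all miRNA genes 729 had a read, and 5 of these had a hairpin sequence with no window of its own. Of the 66 windows of Mir467d, 25 were its own (37.9%), and its closest gene was Mir467e, at 92.0% identity. Mir467e had 57.4% of windows of its own, Mir467c 60.3%, Mir669o 50.6%, Mir669l 50.6% and Mir669c 81.1%. Members with at least 50% of windows of their own numbered 21 and held 70.0% ± 1.42 of the families' reads, and 8 of them reached 1 CPM in both libraries. The 28 members with some but under 50% had 3 such genes, Mir467d, Mir297a-2 and Mir467b. The share over all miRNA genes was not taken at these cuts. Since reads that match several places were not counted, the split does not compare levels on equal terms.

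A hairpin with sequence of its own did not always have reads. Of the 46 members without a read, 27 had at least 1 window of their own. The windows cover the whole hairpin and need not lie in the mature strand. Mir467h had 38.2% of windows of its own, yet its mature sequence occurs in 3 GENCODE hairpins. Such windows therefore do not show that reads of the mature strand could be counted. Mir669n shares no 20 nt stretch with another miRNA gene and had 0 reads, and Mir466g, the only other such member, had 1 read in replicate 1 and 0 in replicate 2. Mir669e had 95% of windows of its own and stood at 15.4 ± 1.04 CPM, far below Mir467d. Mir466p, which lies between Mir467e and Mir467d, had 37.1% of windows of its own and no read. Mir669n, Mir466g, Mir466p, Mir466b-8, Mir669a-2 and Mir467a-1 were named after their values were seen, as were Mir466c-2, Mir669a-1 and Mir669k below. Whether reads set apart, low transcription or weak processing lie behind the counts of 0 was not tested.

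**Figure D3:**
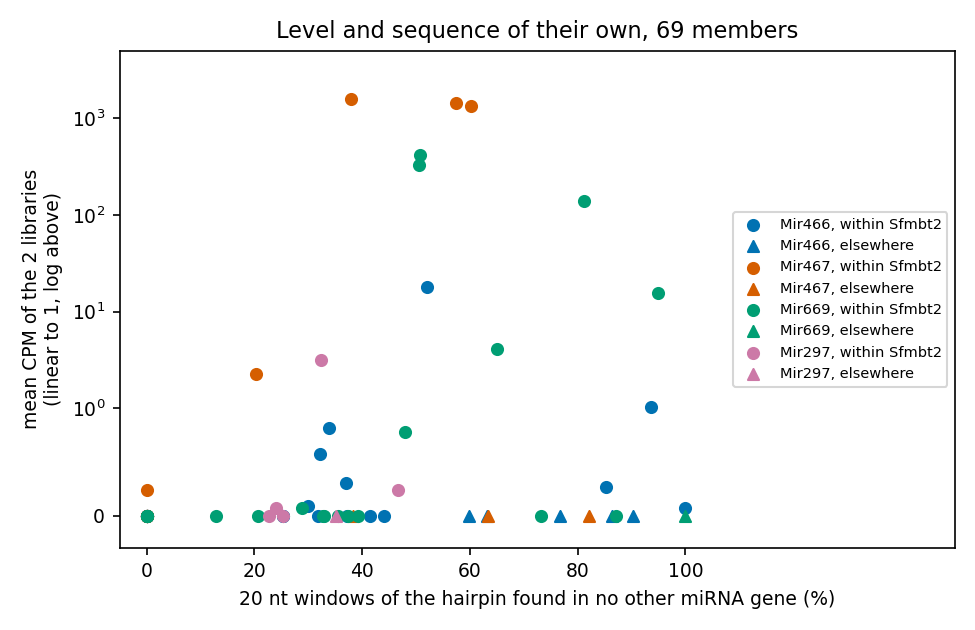
Mean CPM of the 2 libraries (linear up to 1, log above) against the percent of 20 nt windows found in no other miRNA gene, for all 69 members; circles lie within Sfmbt2, triangles elsewhere, and colours mark the families. The 20 members with no window of their own lie at or near 0 CPM, the 6 highest lie between 37.9% and 81.1%, and the 10 members elsewhere lie at 0 CPM between 35.1% and 100%.

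The annotated extent of Sfmbt2 also holds 48 measured miRNA genes that are outside the families by symbol, all with provisional Gm symbols. By sequence some are copies or near copies of members. The hairpin of Gm25285 was identical to that of Mir466c-2 and the hairpin of Gm26092 to that of Mir669a-1. Gm25673 had 98.4% identity with Mir669k. Whether these 48 genes lie in the intron or in exons was not examined. They had 15 reads in replicate 1 and 14 in replicate 2 in all, and none reached 1 CPM in both libraries. The highest were Gm22925 with 2 and 10 reads, Gm22239 with 4 and 2, and Gm26398 with 4 and 0. Of these 48 genes 22 had no window of their own.

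The imprinted cluster from Mir379 to Mir410 on chromosome 12, within the Dlk1-Dio3 domain, is another large array of miRNA genes made from a long transcript. Its 33 measured genes held 1.73% of reads in replicate 1 and 2.23% in replicate 2, above the 0.513% and 0.540% of the Sfmbt2 families in both pools. In that cluster 28 of 33 genes reached 1 CPM in both libraries, against 11 of 69 here, and the 3 highest genes held 54.3% of its mean CPM, against 82.2%. Its genes had a median of 100% of windows of their own, against 32.9%. Since reads that match several places were not counted, the shares and counts of genes do not compare the 2 sets on equal terms. How far this bears on the differences was not tested. These values are set side by side without a test, since both sets come from the same 2 libraries.

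The pools were close for the abundant members. Of the 11 members with a mean count of at least 10, 6 were higher in replicate 2, and their median log2 ratio of replicate 2 over replicate 1 was 0.11, with a pseudocount of 0.5 CPM. The median over all 378 genes that met that count was 0.14. TMM and DESeq2 size factors shift every log2 ratio by -0.13 and -0.16, and put the members' median at -0.017 and -0.049. A sign near 0 therefore rests on the scaling, and the ratios below are also given relative to the median of all genes, 0.15 without the pseudocount. With 1 group and 2 libraries no test of biological variation was possible.

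Mir669c stood out among the abundant members. It had 745 reads in replicate 1 and 1033 in replicate 2, which is 0.81 on the log2 scale (95% exact binomial interval 0.68 to 0.95), or 0.67 above the median of all genes. Mir467c went the other way, from 10672 to 7169 reads, with a log2 ratio of -0.23 (-0.27 to -0.19), or -0.38 relative to that median. Both kept their direction with TMM (0.69 and -0.36) and with DESeq2 size factors (0.65 and -0.39). The other 4 of the 6 highest members were nearer to the median: Mir467d had 0.17 (0.13 to 0.21), Mir467e 0.11 (0.070 to 0.15), Mir669o 0.24 (0.16 to 0.31) and Mir669l 0.17 (0.088 to 0.26). Mir467e fell to -0.017 with TMM and -0.049 with DESeq2 size factors. These intervals hold counting error only, and a single pair of pools gives no spread between pools to judge the ratios by. Lists of tissue markers also differed between the pools by CPM. The log2 ratio of the sums was 0.98 for liver (Mir122), 0.79 for neural tissue (Mir137, the only listed neural gene with a read) and 0.61 for trophoblast and pluripotent cells. It was 0.23 for blood, -0.55 for skeletal muscle and -0.14 for embryonic kidney. Relative to the median of all genes these ratios were, in that order, 0.83, 0.64, 0.46, 0.084, -0.70 and -0.28. The part of these lists in the members' ratios was not tested.

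Of the 11 members 1 passed a 2-fold difference, and 7.67% of all genes with that count did. This was Mir297a-2, whose 32 and 12 reads gave -1.07 (-2.16 to -0.077) for the log2 ratio, the lowest of the 11. At a fold of 1.5 Mir669c joined it, giving 2 of 11, where 22.2% of all genes passed. Mir669h had 0.45 (-0.37 to 1.28) and Mir466n -0.23 (-0.62 to 0.15), intervals that include 0.

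**Figure D4:**
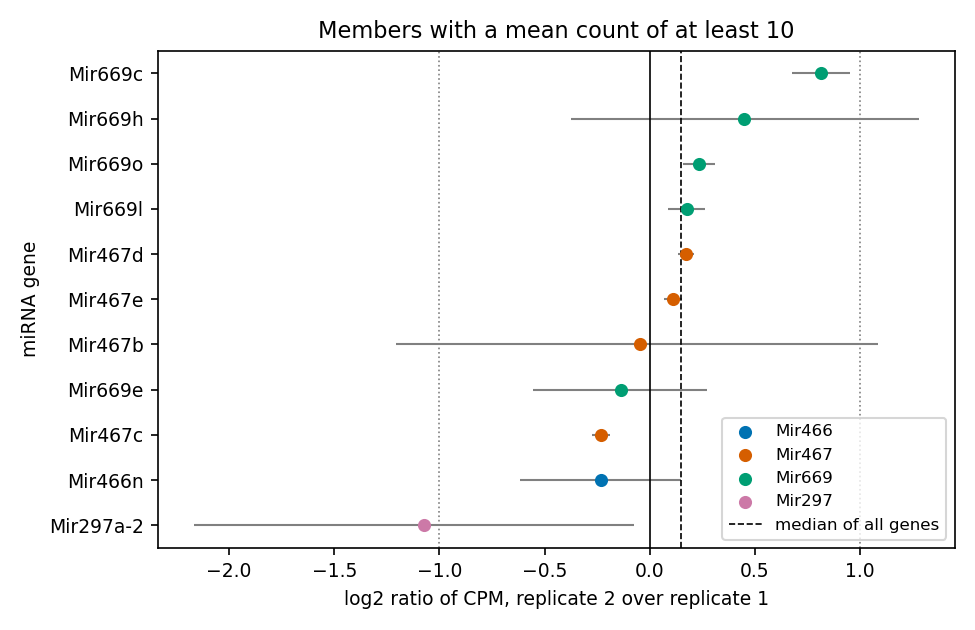
Log2 ratio of CPM, replicate 2 over replicate 1, for the 11 members with a mean count of at least 10; bars are 95% exact binomial intervals for counting error, dotted lines mark 2-fold, the solid line equal levels and the dashed line the median of all genes (0.15). Mir669c at 0.81 and Mir297a-2 at -1.07 lie at the ends, and Mir467d, Mir467e, Mir669l and Mir669o lie within 0.1 of the dashed line.

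The tissue label was read against markers. All 14 listed miRNA genes of embryonic kidney, led by Mir10a and Mir10b, reached 1 CPM in both libraries and summed to 31.1% and 28.3% of reads. Mir10a and Mir10b carried most of that sum, while Mir204, Mir192, Mir196a-1 and Mir30c-2 stood at means of 200.4, 155, 63.2 and 53.4 CPM, below the liver gene Mir122 at 474 CPM and the muscle gene Mir206 at 809 CPM. Since these families are best known from placenta, miRNAs of trophoblast and pluripotent cells were read beside them. Of 10 measured genes of that list (Mir292a was not analysed here) 5 reached 1 CPM in both libraries, Mir290a and Mir367 were at 0, and the list summed to 31.3 and 47.9 CPM in the respective replicates, against 5134 and 5398 CPM for the families. Their part in the families' reads was not tested. Sums in replicates 1 and 2 were 319 and 628 CPM for liver, 732 and 859.6 for blood, 971 and 661 for skeletal muscle, and 126 and 218 for neural tissue. The neural sum was that of Mir137 alone, since Mir9-2 and Mir124a-1 were at 0 in both libraries.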

How the data were processed

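Small RNA libraries of embryonic mouse kidney were analysed from the deposited tables, which list 3 raw read counts for a miRNA gene: unstranded, own strand and opposite strand. The counts deposited by the authors use mm10 and GENCODE M4, per the deposited notes. For aligner and counter, the tool is not given in the sources used here. Multimapped reads have a line of their own and were kept out of library totals, as were unmapped reads and reads outside genes.

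Own-strand counts were divided by their sum over genes and scaled to CPM. Symbols, positions and hairpins were taken from GENCODE M21 (mm10 coordinates), joined by identifier for 1894 of 1973 genes. The unmatched genes held 3 and 2 reads. Mature sequences are those of RefSeq. Hairpins were compared in windows of 20 nt and aligned with Biopython 1.88. Intervals are exact (Clopper-Pearson) binomial intervals at 95%. With 1 group no contrast was fitted. TMM factors came from edgeR 4.0.16 and size factors from DESeq2 1.42.0 in R 4.3.3, and the rest from Python 3.11.15 with scipy 1.17.1. Scripts were tested on simulated data. Where nothing says that the embryo pools were processed apart, the spread between libraries may in part be technical.

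The members, lists and rules were chosen with earlier results of these data known. Named members are the 12 highest, the 4 highest of each family and outside Sfmbt2, the 3 with most opposite-strand reads, the 3 highest and 3 lowest ratios between libraries at a mean count of at least 10, and the 3 highest other genes within Sfmbt2. Genes at 0 of the measure were left out of this rule, and members named after their values were seen are marked. Alternatives were both strands summed, other scalings, count and CPM minimums, pseudocounts and folds, and each replicate left out.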

Additional observations from a re-analysis of the deposited data

How the results depend on the processing

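No paired analysis was possible because the samples form 1 group. The families' share of reads was 0.540% without replicate 1 and 0.513% without replicate 2. It was 0.622% when the most abundant miRNA gene was left out of the total, and 6.73e-06% over the 2 members that share no 20 nt stretch. Members detected numbered 18 at 1 count or more in both libraries, instead of 11, and 12 when either replicate was left out. The share over all genes was not taken at these settings. The median log2 ratio of members turned to -0.017 with TMM and -0.049 with DESeq2 size factors, which by construction move all ratios together. The log2 ratio of the families' summed reads turned to -0.056 and -0.088 under the same scalings, a check added after seeing the data. Members past 2-fold numbered 7 of 19 at a mean count of at least 1, where 29.3% of all genes passed (194 of 663). They numbered 0 of 8 at a mean count of at least 100, where 3.41% of all genes passed (9 of 264). At a fold of 1.5, 2 of 11 members passed, beside 22.2% of all genes. Leaving out either replicate moved the shares of families within 81.0% to 83.5% (Mir467), 15.9% to 18.5% (Mir669), 0.363% to 0.448% (Mir466) and 0.0442% to 0.0891% (Mir297), and the Sfmbt2 intron kept 100% of the reads. Family shares over members with no shared stretch could not be given, since these had no read in replicate 2. Summing members with an identical mature arm was not run. Depth limits members under about 10 reads, whose intervals overlap.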
